A study of Homo sapiens with 33 samples.

Results

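Interleukins, chemokines, colony-stimulating factors and interferons, together with the receptors that read them, were followed across spotted cDNA arrays of 2 human cell lines with and without tumour necrosis factor (TNF-alpha). The members were the spots whose single gene symbol in the platform annotation begins with IL and a digit, or with CCL, CCR, CXCL, CXCR, CSF1, CSF2, CSF3 or IFN, leaving out genes of the CCR4-NOT complex. This rule found 81 of 34560 spots, for 46 genes. They comprised 34 spots of 19 ligand genes, 46 spots of 26 receptor genes, and 1 spot of IL10RB-DT, a transcript that runs divergently from the IL10RB receptor gene and is described apart. The ligands were 13 chemokines and 6 interleukins. The receptors were 18 interleukin receptor chains, 2 colony-stimulating factor receptor chains, 2 interferon receptor chains and 4 chemokine receptors. No interferon or colony-stimulating factor ligand was among the spots that the rule found.

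The cells were THP-1, a human monocytic leukaemia line grown in suspension in RPMI medium, and CaCo-2, a human colon carcinoma line with features of intestinal epithelium grown attached in DMEM. Each line was examined as untreated control and after recombinant human TNF-alpha at 5 ng/ml for 60 min, and no group carried another agent or genetic change. Of 33 deposited columns, 22 entered as separate arrays: 5 of untreated and 7 of TNF-treated THP-1 cells, and 5 each of untreated and TNF-treated CaCo-2 cells. Nothing in the labels says that the arrays of a group came from separate cultures, so the p-values cover spread among arrays that may be technical only, and precision is limited by how many arrays there are. Where a value is given for each of the 4 groups, the order is untreated THP-1, THP-1 with TNF, untreated CaCo-2, CaCo-2 with TNF.

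Interleukins and chemokines are secreted proteins by which immune and epithelial cells instruct one another. Most interleukin receptors are pairs of chains, one that recognises the ligand and another, often shared between several receptors, that carries the signal to JAK kinases and STAT factors or, for the interleukin 1 and 17 families, to adaptor proteins and NF-kB. Chemokine receptors couple to G proteins and steer migration. TNF activates NF-kB and AP-1, and monocytic and intestinal epithelial cells are known to answer it with transcription of chemokine genes.

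IL6R encodes the chain that recognises interleukin 6. Its single spot, 13A10, was above 0 on every THP-1 array and listed at 0 on every CaCo-2 array. The intensities on the 5 THP-1 control arrays were 0.173, 0.168, 0.166, 0.177 and 0.163, the third of them a summed column divided by 3. On the 7 THP-1 TNF arrays the log2 intensity had a lowest value of -2.72, a median of -2.64 and a highest value of -2.56. The THP-1 arrays thus lay within a narrow band whether or not TNF was given, and all 10 CaCo-2 arrays were at 0. Over the 22 arrays 0.0231% of all spots split the lines this way. The THP-1 band was dim, with single columns between 0.145 and 0.177. The lowest positive intensity of any spot was 0.107 on THP-1 control replicate 1. On the 10 CaCo-2 arrays that lowest intensity ran from 0.092 (control replicate 5) to 0.136 (TNF replicate 2). A 0 was taken as missing, so it does not place the CaCo-2 level below that band. In bulk RNA of this kind, fewer cells that express a gene and less RNA per cell cannot be told apart.

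IL6R was above 0 in all 15 deposited THP-1 columns and at 0 in all 18 deposited CaCo-2 columns, the columns set aside in the fits included. Nearly all the summed columns among them hold the readings of a single column also counted, so these columns are not separate arrays. It was 1 of 3 spots on the array that did so, which is 0.00868% of all spots, and the only one of them with a single gene symbol. The opposite pattern was shown by 4 spots, or 0.0116%, none of them a member. An exact two-sided Fisher test of arrays above 0, added after the data were seen, gave 12 of 12 THP-1 against 0 of 10 CaCo-2 arrays, p = 1.5e-06 and an adjusted p of 0.0038 over all spots, with 98 of 34560 spots called (0.284%). Within control arrays alone (5 of 5 against 0 of 5) the exact p was 0.0079 and its adjusted value 1, and within TNF arrays (7 of 7 against 0 of 5) 0.0013 and 0.574, with 0% of spots called in either. With 0 taken as missing, limma had no CaCo-2 level to fit. With 0 raised to each array's lowest positive value, limma gave a difference (CaCo-2 minus THP-1) of -0.67 on the log2 scale in controls (adjusted p = 1.5e-05, 0.449% of all spots called) and -0.62 under TNF (adjusted p = 6.4e-06, 1.25% called). The floor stands in for every CaCo-2 value in that fit, so both the size of those differences and their p-values rest on it. Those differences are not measured fold changes, since the CaCo-2 group was listed at 0.

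The 250 bases before the start of IL6R are shown because this gene separated the lines, and those of CXCL10 and CXCL5 because they are textbook targets of TNF and their windows hold NF-kB letters. The sequences are RefSeq's for GRCh38.p14, 5′ to 3′ on the strand of each gene: IL6R at chr1:154405093-154405342 on the plus strand, CXCL10 at chr4:76023498-76023747 and CXCL5 at chr4:73998678-73998927, both on the minus strand. Capitals mark the letters of a searched motif.
IL6R: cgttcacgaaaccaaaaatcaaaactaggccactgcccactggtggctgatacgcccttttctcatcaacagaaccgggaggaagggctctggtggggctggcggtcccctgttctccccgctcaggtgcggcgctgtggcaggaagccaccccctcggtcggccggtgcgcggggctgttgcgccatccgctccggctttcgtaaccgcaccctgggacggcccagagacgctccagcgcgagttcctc
CXCL10: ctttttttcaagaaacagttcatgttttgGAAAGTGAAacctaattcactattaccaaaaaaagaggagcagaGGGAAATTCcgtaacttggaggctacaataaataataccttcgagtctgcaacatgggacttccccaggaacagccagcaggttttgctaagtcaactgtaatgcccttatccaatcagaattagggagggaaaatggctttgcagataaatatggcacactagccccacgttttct
CXCL5: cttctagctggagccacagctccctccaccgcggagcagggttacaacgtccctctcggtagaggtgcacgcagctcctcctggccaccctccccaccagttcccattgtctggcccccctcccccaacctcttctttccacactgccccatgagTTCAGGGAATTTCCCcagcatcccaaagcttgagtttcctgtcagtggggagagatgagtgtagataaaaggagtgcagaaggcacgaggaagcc

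The motifs were searched on both strands in windows of this length for 35116 RefSeq promoters, 60 of them of member genes. The NF-kB letters GGGANNTTC stood in 3.52% of all windows and in 8.33% of the members' windows, which were those of the chemokines CXCL5, CXCL9, CXCL10, CXCL13 and CCL19. In CXCL10 they lay from position -177 to -169, counted from the transcription start, downstream of an interferon response element GAAANNGAA from -221 to -213. In CXCL5 a pair of overlapping matches, from -91 to -83 and from -89 to -81, also overlapped a STAT motif TTCNNNGAA from -95 to -87. The AP-1 letters TGANTCA stood in 20% of the members' windows and 6.57% of all windows, the STAT letters in 11.7% and 6.57%, and the interferon response element in 13.3% and 6.88%. None of these letters stood in the IL6R window. A match is a description of the letters and not of a bound site.

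A spot's signal also depends on the cDNA it carries, so levels are compared between arrays for the same spot and not between genes. The members read in the dim range of the array: the median of their mean log2 intensities was -2.61 for ligand spots and -2.76 for receptor spots, and -2.53 for all spots. Readings listed at 0 made up 42.4% of ligand readings, 42% of receptor readings and 34.4% of all readings. Of the 81 spots, 10 were above 0 on all 22 arrays (12.3%, against 18.5% of all spots), and 1 of the IL15RA spots was at 0 on every array. For those 10 spots the means of the 4 groups spanned a median of 0.08 on the log2 scale, equal to the 0.08 of the 6401 spots of the whole array that were always above 0. The heatmap of member readings by array shows most rows either grey in patches across all groups or evenly coloured.

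**Figure D1:**
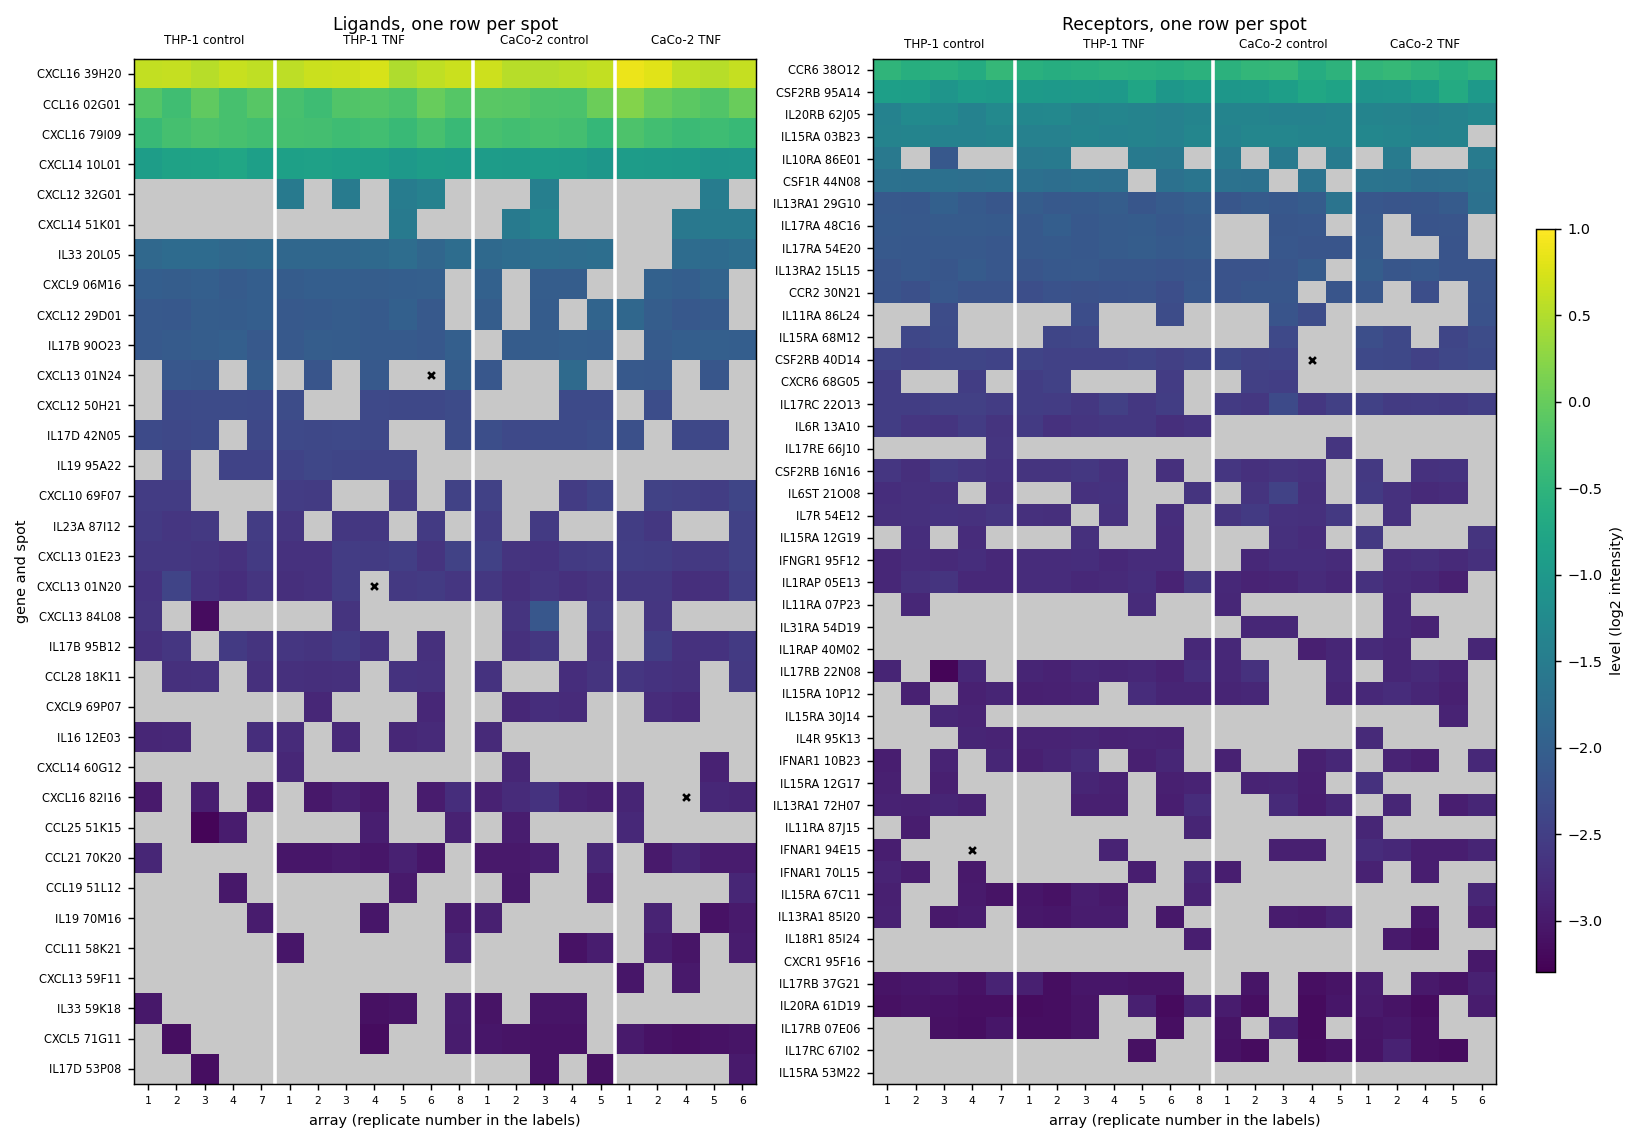
Quantile-normalised log2 intensity (colour) of each ligand and receptor spot (rows, by mean level) on the 22 arrays (columns, by replicate number within the 4 groups). Grey cells are readings listed at 0 and crosses are negative codes, taken as excluded readings. The IL6R row is coloured on all 12 THP-1 arrays and grey on all 10 CaCo-2 arrays.

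CXCL16 is made both as a membrane-anchored and as a soluble chemokine and is the ligand of CXCR6. Its spot 39H20 had log2 intensities of 0.61, 0.62, 0.53, 0.63 and 0.58 on the THP-1 control arrays, and a lowest value of 0.48, a median of 0.65 and a highest value of 0.74 on the THP-1 TNF arrays. The CaCo-2 control arrays read 0.67, 0.54, 0.53, 0.56 and 0.60, and the CaCo-2 TNF arrays 0.88, 0.80, 0.59, 0.54 and 0.63. The high CaCo-2 TNF readings came from 2 of the 5 arrays, and the other 3 lay within the range of the controls. Those 2 were TNF replicates 1 and 2. Over all spots, their deviations from the group means correlated at 0.665 and 0.663 with those of control replicate 1, the highest control here. The part of this array pattern in the CXCL16 readings was not tested. The difference for TNF in CaCo-2 was 0.11 ± 0.06 (SE) and did not pass limma's test.

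CCL16, a chemokine known for its expression in liver, did not separate the groups either. Its spot read -0.15, -0.31, -0.05, -0.25 and -0.12 on THP-1 control arrays and between -0.33 and 0.00 (median -0.16) on THP-1 TNF arrays. It read -0.10, -0.11, -0.20, -0.22 and 0.03 on CaCo-2 control arrays and 0.20, 0.01, -0.09, -0.16 and 0.01 on CaCo-2 TNF arrays. All 4 groups overlapped, and the group means lay between -0.18 ± 0.10 (SD, n = 5) in THP-1 control and 0.00 ± 0.14 (SD, n = 5) in CaCo-2 TNF.

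CXCL14, a chemokine of epithelia that attracts monocytes and dendritic cells, was a ligand above 0 on all 22 arrays. Its spot 10L01 read -0.91, -0.83, -0.81, -0.76 and -0.88 on THP-1 control arrays and -0.93, -0.93, -0.93, -0.94 and -1.03 on CaCo-2 control arrays. Under TNF it lay between -0.97 and -0.84 (median -0.89) on THP-1 arrays and read -0.93, -0.94, -0.95, -1.06 and -1.03 on CaCo-2 arrays. The lines thus overlapped under TNF, while on control arrays every CaCo-2 reading lay below every THP-1 reading. The control difference of -0.11 ± 0.03 (SE, CaCo-2 minus THP-1) had an adjusted p of 0.141 and the TNF difference of -0.09 ± 0.03 an adjusted p of 0.139 in limma, so neither passed 0.05.

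CXCL10 and CXCL5 stand for the chemokines that TNF is known to induce, CXCL10 attracting activated T cells through CXCR3 and CXCL5 attracting neutrophils. CXCL10 was above 0 on 2 of 5, 4 of 7, 3 of 5 and 4 of 5 arrays of the 4 groups, at group means between -2.54 and -2.46. CXCL5 was above 0 on 3 of 12 THP-1 arrays and on 9 of 10 CaCo-2 arrays, with CaCo-2 means of -3.07 ± 0.02 (SD, n = 4) in control and -3.07 ± 0.05 (SD, n = 5) under TNF. Thus CXCL5 was above 0 on more of the CaCo-2 than of the THP-1 arrays. Its level in CaCo-2 differed by 0.002 with TNF, with a 95% interval from -0.08 to 0.08. The exact Fisher test for CXCL5 between the lines over both conditions gave p = 0.0037 and an adjusted p of 0.237. The deposited summed columns were above 0 for CXCL5 in 7 of 7 CaCo-2 and 1 of 4 THP-1 cases.

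The other chemokines are given by the number of arrays above 0 in each line. CXCL12, the ligand of CXCR4, was above 0 on spot 29D01 on 11 of 12 THP-1 arrays, at -2.06 ± 0.04, and on 7 of 10 CaCo-2 arrays, at -2.01 ± 0.09 (SD). Its other spots were above 0 on 9 of 12 and 3 of 10 arrays (50H21) and on 4 of 12 and 2 of 10 (32G01). CXCL13, which draws B cells into follicles through CXCR5, was above 0 on all 22 arrays on spot 01E23, at -2.60 ± 0.08 (n = 12) and -2.56 ± 0.07 (SD, n = 10). Of its other 4 spots, 01N20 was above 0 on every array not excluded, 01N24 on 6 of 11 THP-1 and 5 of 10 CaCo-2 arrays, 84L08 on 3 of 12 and 4 of 10, and 59F11 on 0 of 12 and 2 of 10. CXCL9, like CXCL10 an interferon-induced ligand of CXCR3, was above 0 on spot 06M16 on 11 of 12 and 6 of 10 arrays, at -2.02 ± 0.02 and -1.99 ± 0.04 (SD). Its other spot, 69P07, ran the other way, above 0 on 2 of 12 and 5 of 10 arrays. Where the first-named spots of these 3 chemokines were above 0, the mean levels of the lines differed by less than the SD within CaCo-2.

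CCL19 and CCL21, the ligands of CCR7, were above 0 on 2 of 12 and 7 of 12 THP-1 arrays and on 3 of 10 and 8 of 10 CaCo-2 arrays. CCL25 and CCL28, chemokines of the gut mucosa, were above 0 on 4 of 12 and 8 of 12 THP-1 arrays and on 2 of 10 and 7 of 10 CaCo-2 arrays. The eosinophil chemokine CCL11 was above 0 on 2 of 12 and 5 of 10 arrays. None of these mucosal and lymphoid chemokines had an unadjusted exact p under 0.05 between the lines over both conditions.

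Among the interleukins, IL19, a cytokine of the IL10 family, was above 0 on spot 95A22 on 8 of 12 THP-1 arrays, between -2.44 and -2.39, and on 0 of 10 CaCo-2 arrays. The exact Fisher p was 0.0017 and its adjusted value 0.188. In the summed CaCo-2 columns this spot was above 0 in 4 of 7, so it was not at 0 in every CaCo-2 column as IL6R was, and the other IL19 spot, 70M16, was above 0 on 3 of 12 THP-1 and 4 of 10 CaCo-2 arrays. IL33, an alarmin released from damaged epithelium, had group means on spot 20L05 of -1.82 ± 0.02 (n = 5), -1.83 ± 0.05 (n = 7), -1.78 ± 0.03 (n = 5) and -1.77 ± 0.02 (SD, n = 3) in the 4 groups, and its other spot, 59K18, was above 0 on 4 of 12 THP-1 and 3 of 10 CaCo-2 arrays. IL23A, the subunit that is particular to interleukin 23 and another known NF-kB target, was above 0 on 13 of 22 arrays with group means between -2.60 and -2.53. IL16, which attracts CD4-bearing cells, was above 0 on 7 of 12 THP-1 and 1 of 10 CaCo-2 arrays (exact p = 0.031).

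**Figure D2:**
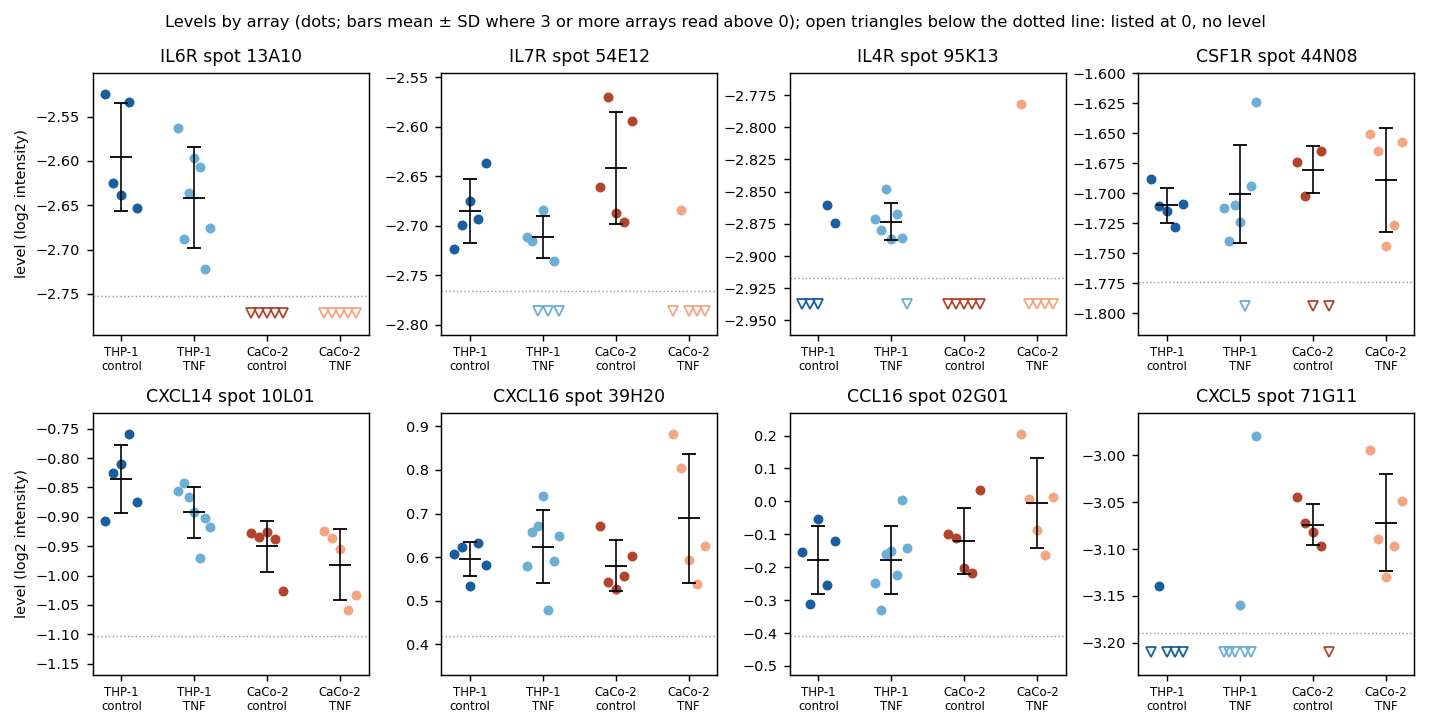
Log2 intensity on each array (dots) for 8 spots in the 4 groups, with the mean ± SD where at least 3 arrays were above 0; open triangles mark arrays listed at 0. IL6R has dots only in the THP-1 groups, while CXCL14, CXCL16 and CCL16 have dots on all 22 arrays within bands that overlap under TNF.

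Of the receptors, IL7R, the chain that recognises interleukin 7, was the one whose listing differed with TNF in CaCo-2 by the unadjusted test. It was above 0 on 5 of 5 CaCo-2 control arrays, at -2.66, -2.57, -2.69, -2.70 and -2.59, and on 1 of 5 CaCo-2 TNF arrays, at -2.68. In THP-1 it was above 0 on 5 of 5 control arrays, between -2.72 and -2.64, and on 4 of 7 TNF arrays, between -2.74 and -2.68. Where the spot was above 0, its levels lay in the same band in all groups.

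The exact Fisher p for IL7R in CaCo-2 was 0.048 with an adjusted p of 1, which is 1 of 81 members (1.23%) at an unadjusted p under 0.05 against 0.885% of all spots, and 0% of spots were called. In THP-1 it was 0 of 81 members, against 0.978% of all spots. The CaCo-2 summed columns were all above 0 for IL7R, from 0.295 to 0.513 in 5 control columns, 1 of which belongs to a pair under opposite labels, and 0.138 and 0.132 in 2 TNF columns. The 4 THP-1 summed columns lay between 0.302 and 0.485. With 0 raised to the floor, the CaCo-2 difference was -0.50 with an adjusted p of 0.561 in limma, where 0.0434% of all spots were called.

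IL4R, the chain shared by the receptors of interleukins 4 and 13, was above 0 on 2 of 5, 6 of 7, 0 of 5 and 1 of 5 arrays of the 4 groups. The exact Fisher test between the lines over both conditions gave p = 0.012 and an adjusted p of 0.370. The single CaCo-2 reading was -2.78, and the THP-1 readings above 0 lay between -2.89 and -2.85.

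The IL17 receptors combine IL17RA, the shared chain, with IL17RB, IL17RC or IL17RE. Both IL17RA spots were above 0 on 12 of 12 THP-1 arrays and on 5 of 10 CaCo-2 arrays (exact p = 0.0096 for each, adjusted 0.331). Spot 48C16 had means of -2.08 ± 0.01 (n = 5), -2.08 ± 0.04 (n = 7), -2.14 ± 0.01 (n = 2) and -2.15 ± 0.04 (SD, n = 3) in the 4 groups. The second spot, 54E20, had means of -2.11 ± 0.02 (n = 5), -2.07 ± 0.03 (n = 7), -2.16 ± 0.02 (n = 3) and -2.12 ± 0.07 (SD, n = 2) in the 4 groups. The separate IL17RA spots thus gave like levels and the same counts of arrays above 0, although 6 of 7 summed CaCo-2 columns were above 0 for each.

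IL17RC differed between its spots. Spot 67I02 was above 0 on 1 of 12 THP-1 and 8 of 10 CaCo-2 arrays (exact p = 0.0015, adjusted 0.188), and 6 of 7 summed CaCo-2 columns and 1 of 4 summed THP-1 columns were above 0. The other IL17RC spot, 22O13, was above 0 on 21 of 22 arrays. IL17RE was above 0 on 2 of 22 arrays.

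IL15RA had 8 spots, the most of any member. Its brightest, 03B23, was above 0 on 12 of 12 THP-1 arrays, at -1.38 ± 0.02, and on 9 of 10 CaCo-2 arrays, at -1.36 ± 0.03 (SD). Spot 67C11 was above 0 on 8 of 12 THP-1 and 1 of 10 CaCo-2 arrays (exact p = 0.012), a split that spot 03B23 did not show. IL13RA1, which pairs with IL4R, was above 0 on all 22 arrays on spot 29G10, and IL13RA2, a decoy that binds interleukin 13, on 12 of 12 THP-1 and 9 of 10 CaCo-2 arrays, at -2.13 ± 0.03 and -2.15 ± 0.06 (SD). IL10RA, the ligand-binding chain of the interleukin 10 receptor, was above 0 on 6 of 12 and 5 of 10 arrays.

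IL1RAP was above 0 on spot 05E13 on 12 of 12 THP-1 and 9 of 10 CaCo-2 arrays, and on spot 40M02 on 1 of 12 and 6 of 10 (exact p = 0.020). IL31RA, the chain that recognises interleukin 31, was above 0 on 0 of 12 THP-1 and 4 of 10 CaCo-2 arrays (exact p = 0.029). IL20RA and IL20RB, which together form a receptor for interleukins 19, 20 and 24, were above 0 on 11 of 12 and 12 of 12 THP-1 arrays and on 8 of 10 and 10 of 10 CaCo-2 arrays.

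IL6ST, the signalling chain that IL6R shares with IL11RA and other receptors, was above 0 in both lines, on 7 of 12 THP-1 and 7 of 10 CaCo-2 arrays. Its means were -2.72 ± 0.02 (n = 4), -2.67 ± 0.01 (n = 3), -2.61 ± 0.14 (n = 3) and -2.70 ± 0.09 (SD, n = 4) in the 4 groups. The lack of CaCo-2 readings on the IL6R spot was therefore not shared by the spot of its partner chain.

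CSF1R, the receptor of macrophage colony-stimulating factor and a marker of monocytes, was above 0 on 11 of 12 THP-1 and 8 of 10 CaCo-2 arrays. The means were -1.71 ± 0.01 (n = 5) and -1.70 ± 0.04 (n = 6) in THP-1, and -1.68 ± 0.02 (n = 3) and -1.69 ± 0.04 (SD, n = 5) in CaCo-2, each without and with TNF. This monocyte marker was thus read at like levels in the epithelial line. CSF2RB, the chain shared by the receptors of interleukins 3 and 5 and of granulocyte-macrophage colony-stimulating factor, had means on spot 95A14 of -0.94 ± 0.08 (n = 5), -0.94 ± 0.08 (n = 7), -0.89 ± 0.12 (n = 5) and -0.94 ± 0.17 (SD, n = 5) in the 4 groups.

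The interferon gamma receptor chain IFNGR1 was above 0 on 11 of 12 THP-1 and 8 of 10 CaCo-2 arrays, with group means from -2.78 to -2.74. The type I interferon receptor chain IFNAR1 was above 0 on spot 94E15 in 2 of 11 THP-1 and 7 of 10 CaCo-2 arrays (exact p = 0.030), and on its other spots on 8 and 5 of 12 THP-1 and 6 and 3 of 10 CaCo-2 arrays. CCR2, the receptor by which monocytes follow CCL2, was above 0 on 12 of 12 THP-1 arrays, at -2.21 ± 0.04, and on 7 of 10 CaCo-2 arrays, at -2.18 ± 0.05 (SD). CCR6, the receptor of CCL20, was above 0 on all 22 arrays, with means of -0.55 ± 0.09 (n = 5), -0.58 ± 0.03 (n = 7), -0.52 ± 0.08 (n = 5) and -0.50 ± 0.06 (SD, n = 5) in the 4 groups. CXCR1, a receptor of CXCL8, was above 0 on 1 of 22 arrays and IL18R1, the interleukin 18 receptor, on 3 of 22.

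By the exact Fisher test over both conditions, 12 of the 81 spots (14.8%) had an unadjusted p under 0.05 between the lines, against 6.87% of all spots, and IL6R was the 1 of them called after adjustment. Of the 12, 3 were ligand spots (IL16, IL19 and CXCL5) and 9 were receptor spots: IL6R, IL4R, both IL17RA spots, IL17RC 67I02, IL15RA 67C11, IL31RA, IL1RAP 40M02 and IFNAR1 94E15. CaCo-2 had the larger share of arrays above 0 for 5 of them and the smaller share for 7. Control arrays alone gave 2 of 81 (IL6R and IL17RC; 2.47% against 2.29% of all spots) and TNF arrays alone 5 of 81 (6.17% against 3.87%).

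Readings at 0 need care. Among the 305 member readings at 0 on an array with a summed partner column, 115 (37.7%) were above 0 in that partner. The median of those summed values, not divided by 3, was 0.135. The share over all spots was not worked out. For IL6R, 0 of 6 such readings were above 0 in the partner, for IL4R 0 of 7 and for CXCL5 0 of 2. It was 2 of 2 for IL7R, 9 of 14 for IFNAR1, 4 of 7 for IL31RA and 3 of 6 for IL1RAP. For IL17RA it was 2 of 4, for IL19 7 of 15, for IL15RA 12 of 40, for IL17RC 1 of 4 and for IL16 1 of 5. These counts take all spots of a gene together.

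**Figure D3:**
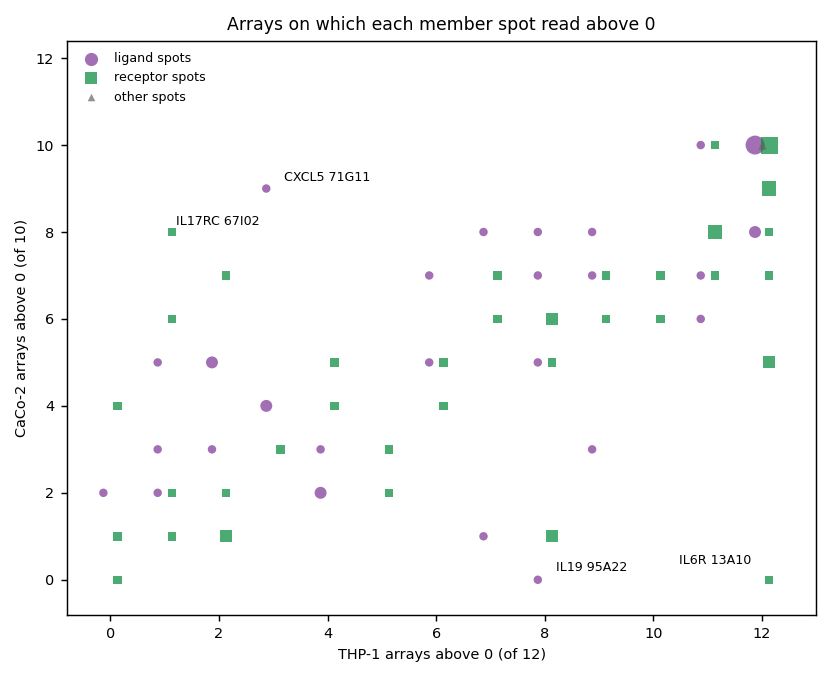
Number of arrays above 0 for each member spot in THP-1 (x axis, of 12) and CaCo-2 (y axis, of 10), with circles for ligands, squares for receptors, and symbol size for the number of spots at a position. IL6R lies at 12 and 0, IL19 at 8 and 0, and IL17RC at 1 and 8.

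Where a gene had several spots, they seldom gave one level. CXCL16 spots had mean log2 intensities from -2.89 to 0.62, a range of 3.51. The range was 1.93 for CXCL14, 1.73 for CSF2RB, 1.61 for IL15RA over 7 of its 8 spots with a level, and 1.24 for IL33. At the other end, the IL17RA spots differed by 0.01 and those of IL1RAP, the shared chain of the interleukin 1 and 33 receptors, and IFNAR1 by 0.05 each. Spots are therefore reported one by one, and their mean per gene was used as an alternative only.

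**Figure D4:**
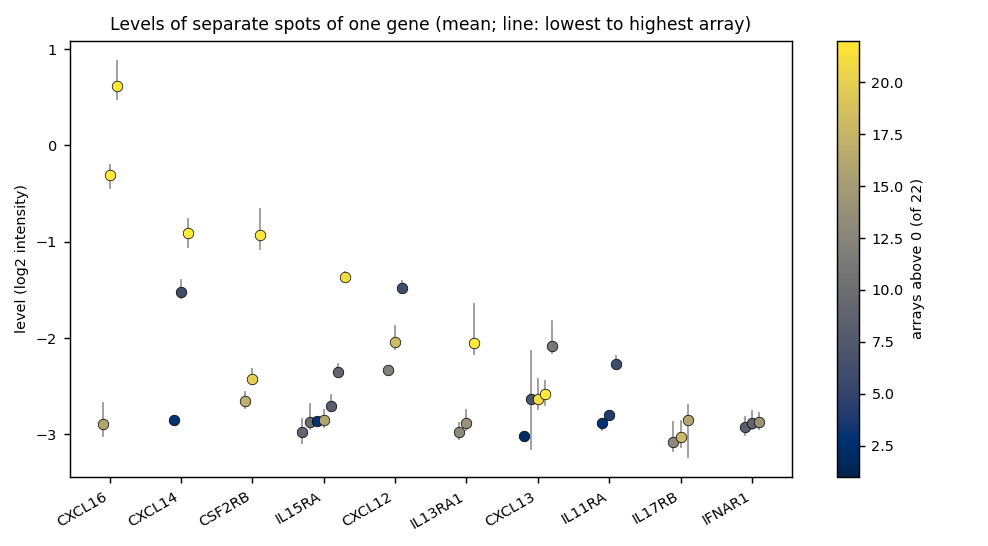
Mean log2 intensity over arrays above 0 for every spot of the 10 genes with at least 3 spots; lines run from the lowest to the highest array, and colour gives the number of arrays above 0 of 22. The spots of CXCL16 lie up to 3.51 apart, much farther than any spot varies between arrays.

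For TNF in CaCo-2, no member passed limma's test. Of the 81 spots, 41 could be tested, because at least 3 arrays of each group had to be above 0, and 0 were called at an adjusted p under 0.05, as were 0 of all 19479 spots tested (0%). At an unadjusted p under 0.05 there were 0 members, against 479 of all spots (2.46%). Of the 41, 24 had higher and 17 lower estimates under TNF, with a median log2 fold change of 0.003 (0.009 over all spots tested). The 95% intervals reached from -0.16 to 0.26 over the 17 ligand spots and from -0.25 to 0.20 over the 23 receptor spots.

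The member with the smallest p in CaCo-2 was IL17RB spot 37G21, at 0.09 ± 0.05 (SE, unadjusted p = 0.106 and adjusted p = 1 in limma). Next came CCL16 at 0.12 ± 0.07 (unadjusted p = 0.113 in limma). The TNF-induced genes of a list of 32 that had member spots were CXCL10, CXCL5, IL23A and IL15RA, the chain that presents interleukin 15. Of their 11 spots 4 could be tested in each line, for 3 genes in CaCo-2 and 2 in THP-1. Of these spots 0 were called, with a median change of 0.010 in CaCo-2 and -0.004 in THP-1. CXCL10 and CXCL5 could not be tested in THP-1, being above 0 on 2 of 5 and 1 of 5 control arrays. IL23A could not be tested in CaCo-2, being above 0 on 2 of 5 control arrays. The estimate for CXCL10 in CaCo-2 was 0.02, with a 95% interval from -0.06 to 0.10.

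For TNF in THP-1, 47 of the 81 spots could be tested and 0 were called, as were 0 of all 21989 spots tested (0%). At an unadjusted p under 0.05 there were 3 members (6.38%), against 544 of all spots (2.47%). They were IL6ST at 0.05 ± 0.02, IL17RA 54E20 at 0.04 ± 0.02 and IL10RB-DT at 0.17 ± 0.08 (SE), with an adjusted p of 1 each in limma. The IL6ST estimate turned to -0.18 with 0 raised to the floor. Of the 47, 20 had higher and 27 lower estimates, with a median of -0.004 (0.001 over all spots tested), and the 95% intervals lay between -0.13 and 0.34. IL6R, which only THP-1 arrays listed above 0, differed by -0.05 ± 0.03 (SE), with an interval from -0.11 to 0.02.

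The response to TNF was also compared between the lines in 1 model. None of 36 members tested was called, nor any of 16931 spots (0%), and 0 members against 411 of all spots (2.43%) had an unadjusted p under 0.05. The smallest unadjusted p among members was 0.075, for IL17RB spot 22N08, whose response in CaCo-2 lay 0.19 ± 0.10 (SE) below that in THP-1 (adjusted p = 1 in limma).

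**Figure D5:**
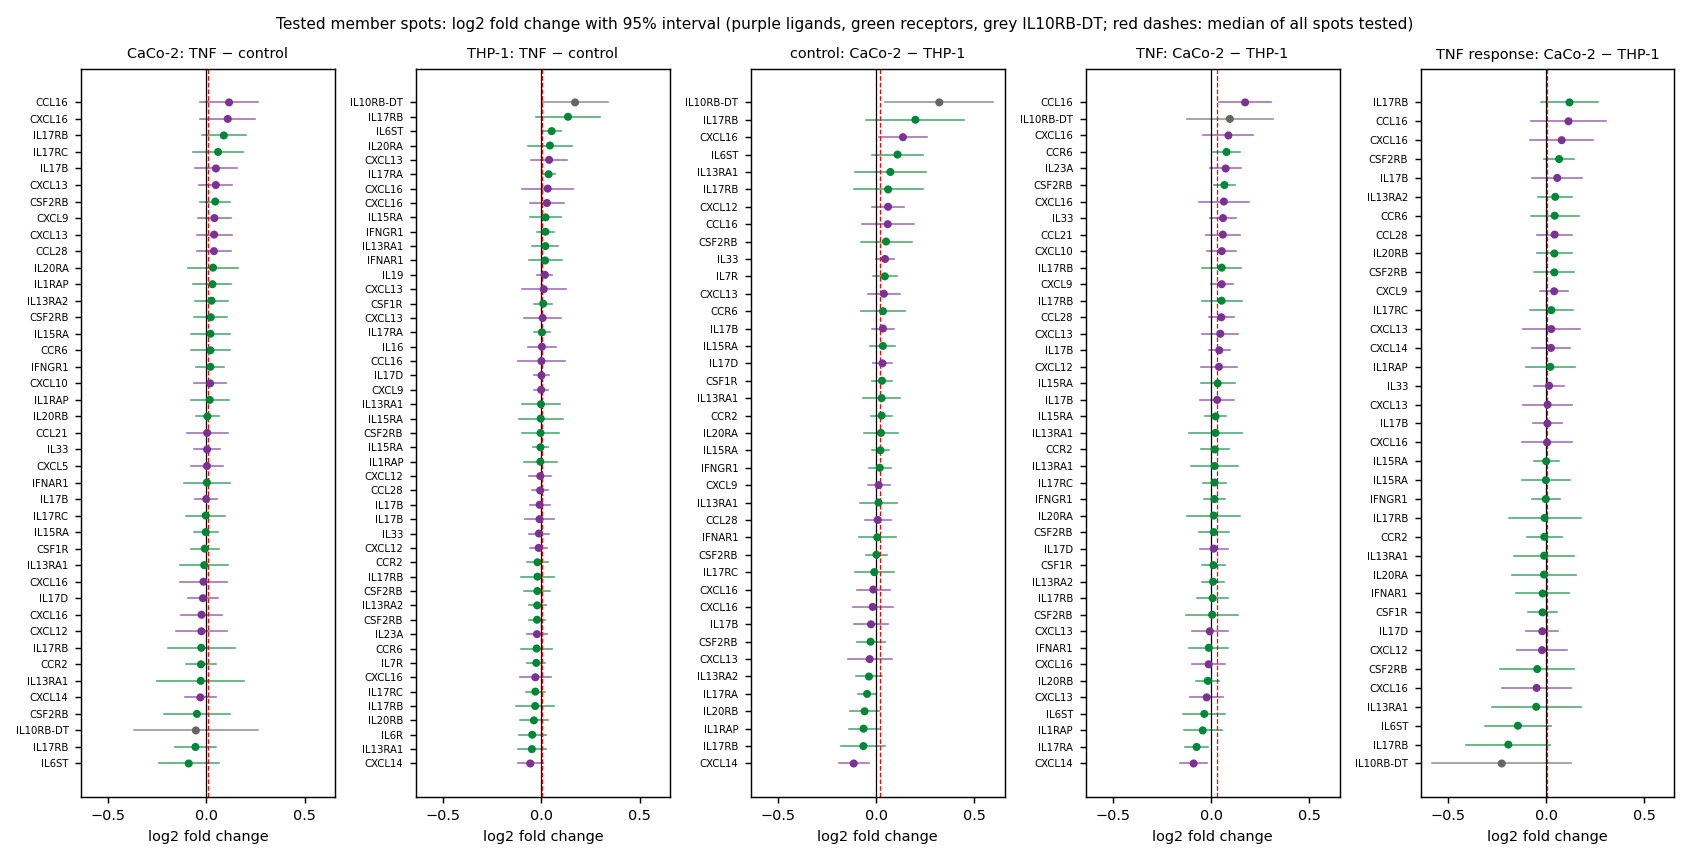
Log2 fold change with its 95% interval for every member spot tested in each of the 5 limma comparisons, with purple for ligands, green for receptors, grey for IL10RB-DT, and a red dashed line for the median of all spots tested. Most intervals cross 0 and none of the points passed an adjusted p of 0.05.

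Between the untreated lines, 39 members could be tested and 0 were called, against 75 of 19420 spots (0.386%), of which 48 were higher in CaCo-2 and 27 lower. The share of higher calls was 64%. It was 80% of 35 calls when only array medians were equalised, and 20.8% of 24 calls when each single column was averaged with its summed partner, so the direction of these calls turned with that choice. At an unadjusted p under 0.05 there were 4 members (10.3%), against 17.7% of all spots tested: CXCL14 10L01, IL10RB-DT, CXCL16 82I16 and IL17RA 54E20. Of the 39, 27 had higher and 12 lower estimates in CaCo-2, with a median of 0.02 as over all spots tested. IL10RB-DT differed by 0.32 ± 0.12 (SE, adjusted p = 0.226 in limma) and was called when CaCo-2 control replicate 1 was left out, at 0.43 with an adjusted p of 0.021. The count of 75 moved to between 8 and 17 when 1 of 8 other arrays was left out, to 51 without THP-1 control replicate 3, and to 947 without CaCo-2 control replicate 1.

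Between the lines under TNF, 41 members could be tested and 0 were called, against 444 of 20750 spots (2.14%), of which 365 were higher in CaCo-2 and 79 lower. The share of higher calls was 82.2%. It was 39.7% of 126 calls with no normalization and 56.7% with 0 raised to the floor. At an unadjusted p under 0.05 there were 5 members (12.2%), against 20.4% of all spots tested. They were CXCL14 at -0.09 ± 0.03 (adjusted p = 0.139), CCL16 at 0.17 ± 0.06 (0.139), CSF2RB 40D14 at 0.07 ± 0.02 (0.153), IL17RA 48C16 at -0.07 ± 0.03 (0.167) and CCR6 at 0.08 ± 0.03 (0.188), each with its SE and limma's adjusted p. Of the 41, 32 had higher and 9 lower estimates in CaCo-2, with a median of 0.02 against 0.03 over all spots tested. Without THP-1 TNF replicate 8, CXCL16 82I16 was called at 0.13 with an adjusted p of 0.041, and the count over all spots was 1739. Leaving out 1 of THP-1 TNF replicates 1, 2, 3, 4 and 6 gave counts from 114 to 183, and leaving out CaCo-2 TNF replicate 4 or 6 gave 242 or 241.

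The genes that carry the members' signals are described from lists, with all spots as background. The JAK and STAT list had spots for 20 of 28 genes, the interleukin 1 receptor and Toll adaptors for 12 of 16, chemokine receptor signalling for 17 of 25, and interferon-induced genes for 16 of 38. None of their spots was called for TNF in either line or between the untreated lines. Between the lines under TNF, where 2.14% of all spots were called and 365 of those 444 were higher in CaCo-2, 2 of 24 tested spots of the JAK and STAT list were called, both higher in CaCo-2: SOCS4, at 0.13 ± 0.03 (SE, adjusted p = 0.022), and SOCS6, at 0.23 ± 0.05 (adjusted p = 0.037), both of a family of feedback inhibitors of cytokine signalling.

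The line labels were set against marker genes. Of 30 monocyte markers 10 had spots, and their summed intensity was 5.55 to 6.66, 4.99 to 6.27, 4.30 to 4.98 and 3.85 to 5.69 in the 4 groups. The LAPTM5 spot, 1 of 4 CD4 spots and 1 of 4 LST1 spots, 3 of 18 spots in the list, were at 0 on every CaCo-2 control array. They were above 0 on 5, 3 and 4 of 5 THP-1 control arrays. Counting excluded readings, 2160 of all 34560 spots were likewise never above 0 on CaCo-2 control arrays. The brightest CD4 spot, 62B12, was higher in CaCo-2, at 0.17, 0.25, 0.44 and 0.41 in the 4 groups. PTPRC, the pan-leukocyte CD45, read -1.32 and -1.35 in THP-1 and CaCo-2 controls. Of 30 epithelial markers 6 had spots, with overlapping sums of 2.39 to 2.92 on THP-1 control and 2.55 to 2.89 on CaCo-2 control arrays, and MUC13, an intestinal mucin, read -1.45 in both untreated lines. Of 6 epithelial spots tested between the lines under TNF, 2 were higher and 1 lower in CaCo-2 at an unadjusted p under 0.05, and 1 was called: VIL1, which encodes the microvillus protein villin, at 0.13 ± 0.03 (SE, adjusted p = 0.030 in limma) higher in CaCo-2. The spots of the epithelial factor ELF3 ran opposite ways. Spot 88A17 was above 0 on 5 of 5 CaCo-2 control arrays and at 0 on all 12 THP-1 arrays, while 85B06 was at 0 on all 5 CaCo-2 control arrays and above 0 on 5 of 5 THP-1 control arrays. CLDN4, a tight junction claudin, read 0.14 in CaCo-2 and 0.28 in THP-1 under TNF on spot 59O01, and -2.73 and -2.89 on spot 79P18, so its spots also differed in direction. Their part in the members' similar levels between the lines was not tested.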

How the data were processed

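Total RNA was made into 33P-labelled cDNA and hybridised to spotted arrays, per the labels' protocols. The authors deposited linear spot intensities. Image reading and scaling are steps not given in the sources used here. Negative codes were taken as excluded readings. Some columns were about 3 times a single column: 9 such pairs were counted once, by the single column, 1 pair under opposite labels was left out, and 1 sum with no partner (THP-1 control replicate 3) was divided by 3. The 22 arrays were quantile-normalised on the log2 scale, 0 was then taken as missing, and spots with at least 3 arrays above 0 in each group were fitted with limma 3.58.1 in R 4.3.3 (lmFit, eBayes with trend, two-sided), adjusting by Benjamini-Hochberg over all spots tested. The fits were also run on simulated data, with changes planted only in spots above 0 on all 22 arrays. Of the 81 member spots 10 were of that kind, so power for the others was not tested. Gene symbols came from the platform annotation, and all 46 genes were in the RefSeq table. Values are given for the 2 ligand and 2 receptor spots with the smallest p in each comparison, the 2 brightest of each role, spots at 0 in a whole group, IL6R, IL7R, TNF-inducible genes, and ligands and receptors that pair with each other. The other spots named in the Fisher test were chosen after their values were seen. The members, lists and markers were chosen with earlier results of these data known. Another 15 settings, and leaving out each array, are given at the end.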

Additional observations from a re-analysis of the deposited data

Results flagged for a closer look

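The search took the member spots chosen by smallest p, brightness or listing at 0, and those of IL6R, IL7R and the TNF-inducible genes. A set was 1 such spot in 1 group with at least 4 arrays above 0, leaving out readings at 0. In 3 of 60 sets, 1 array lay far from the others by Dixon's ratio, where chance gives about 1 in 20. CSF2RB spot 95A14, the chain shared by several haematopoietic cytokine receptors, read -0.77 on THP-1 TNF replicate 5, and between -1.02 and -0.94 on the other 6 arrays. The epithelial chemokine CXCL14, on spot 10L01, read -1.03 on CaCo-2 control replicate 5, and between -0.94 and -0.93 on the other 4. IL17RB spot 22N08, the chain that recognises interleukins 17B and 25, read -2.73 on THP-1 TNF replicate 8, and between -2.88 and -2.82 on the others.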

How the results depend on the processing

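The absence of called members for TNF in CaCo-2, for TNF in THP-1 and for the difference in response between the lines held with each array left out and under the 15 other settings run, 14 for the difference in response, which was not run with all groups in 1 fit. Between the untreated lines, 1 member was called with 0 raised to the floor (IL6R) and 1 without the 3 CaCo-2 arrays that vary together, chosen after seeing the data (IL10RB-DT, 0.44, adjusted p = 0.021). Leaving out 1 array gave 0 to 1. Under TNF, 2 were called with the floor (IL6R, and IFNAR1 94E15 at 0.34, adjusted p = 0.045), 3 with array weights (CCL16, CCR6 and CSF2RB 40D14), and 0 to 1 with 1 array left out. IL6ST 21O08 turned its direction: for TNF in CaCo-2 to 0.058 with the floor and 0.076 with no normalization, for TNF in THP-1 to -0.18 and between the untreated lines to -0.044 with the floor. The cause was not tested. Replicate numbers did not pair arrays (same-number r from -0.30 to 0.67 in CaCo-2 and -0.37 to 0.31 in THP-1). With the replicate block, 0 members were called in all 5 comparisons, and 0, 1, 0, 703 and 4 of all spots in the order of CaCo-2 TNF, THP-1 TNF, lines in control, lines under TNF, and the difference in response. Over all spots, the 75 calls between untreated lines became 155 with the floor, 5 with no normalization, 35 with medians, 21 without trend, 664 with weights, 309 with all groups, 24 with the mean of a pair (20.8% of them higher in CaCo-2, against 64%), 20 with a minimum of 2 arrays, 19 by gene mean, 5 with the opposite-label pair by its summed column, and 940 without the 3 arrays. The 444 under TNF became 126 with no normalization, 289 without trend, 2728 with weights, 732 with all groups, 72 with the mean of a pair, 13 by gene mean, and 834 with the opposite-label pair by its single column. The 0 calls for TNF in CaCo-2 became 15 with the floor, 16 with the mean of a pair and 2 by gene mean; in THP-1, 5, 1 and 1; for the difference in response, 0, 5 and 1. The main limma fits covered only spots with at least 3 arrays above 0 in each group. Why the other readings were listed at 0 was not tested.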

Other observations

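Some member spots varied by array across the CaCo-2 groups. IL10RB-DT read 0.07, 0.14 and 0.23 on CaCo-2 control replicate 1 and TNF replicates 1 and 2, and 0.52 to 0.83 on the other 7 CaCo-2 arrays. IL13RA1 spot 29G10, a chain of the receptor for interleukin 13, read -1.65 and -1.70 on CaCo-2 control replicate 5 and TNF replicate 6, and at most -1.98 on every other array. CSF2RB spot 95A14 read -0.73 and -0.66 on CaCo-2 control replicate 4 and TNF replicate 5. Over all spots, deviations from the group means correlated at 0.66 between control replicate 1 and TNF replicate 2, at 0.73 between control replicate 5 and TNF replicate 6, and at 0.50 between control replicate 4 and TNF replicate 5. These are descriptions of single arrays, and their part in the members' values was not tested.

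The pair of columns under opposite labels, a CaCo-2 control sum and a CaCo-2 TNF single column, entered no comparison. For IL7R they read 0.295 and 0.148, for IL17RC spot 67I02 0.345 and 0.113, and for CXCL5 0.121 and 0.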
